A study of Homo sapiens with 2 samples.

Results

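TUSC3 and MAGT1 encode the 2 alternative oxidoreductase subunits of the oligosaccharyltransferase, the enzyme of the endoplasmic reticulum that attaches glycans to asparagine residues of new proteins. They were described here together with STT3B, DDOST, RPN1, RPN2, DAD1 and OSTC, which makes 8 genes. A probe set, the group of probes that reads 1 stretch of an exon, was assigned to a gene when that gene was its only symbol in the annotation of the platform. The 8 genes had 118 of the 261273 probe sets with 1 gene, and all 8 were among the 16241 genes with at least 3 probe sets. The group was chosen by the difference of TUSC3 between these same arrays, so the values of TUSC3 below are a description and no test of anything.

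Total RNA came from the human colorectal cancer line HCT116, here HCT116-WT, and from its derivative with genotype DNMT1-/- DNMT3b -/- (HCT116-DKO), in which the genes of 2 enzymes that maintain and set DNA methylation are disrupted. Both lines were untreated and grown in the same serum-containing medium, and per the study's methods HCT116-DKO was the single line DKO1. Each line gave 1 Affymetrix Human Exon array, so replicate errors and p-values cannot be given, and an effect of the disrupted genes cannot be told apart from any other difference between the 2 cultures. Differences are HCT116-DKO minus HCT116-WT on the log2 scale of the signal, and the SD beside them is the spread over the probe sets of a gene within this 1 pair of arrays.

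The arrays held the labelled difference. DNMT1 was lower by the rule given below, at 10.63 and 9.36 in HCT116-WT and HCT116-DKO, as was DNMT3B, at 8.32 and 6.91. Of 15 epithelial and colon markers, 10 were above background in both arrays, among them KRT8 (13.02 and 13.33) and EPCAM (11.81 and 11.43), while KRT20, VIL1, ELF3, LGALS4 and CEACAM5 were above background in neither. Of 7 blood cell markers 6 were above background in neither array, as were all 6 endothelial markers. Of 8 fibroblast markers 3 were above background in both arrays, COL1A1 (8.64 and 8.64), COL1A2 (7.55 and 7.38) and PDGFRB (7.70 and 7.56), and 5 of the 8 had a difference below 0. THY1 alone rose, from 6.23 to 7.64. Background was set from 286 olfactory receptor genes, which are mostly silent outside the nose, as the 95th percentile of their levels, 7.08 for HCT116-WT and 7.30 for HCT116-DKO. The columns had medians of 8.28 and 8.37.

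The oligosaccharyltransferase moves a preassembled glycan from a dolichol lipid carrier onto the asparagine of an Asn-X-Ser or Asn-X-Thr sequence. Mammalian cells hold a pair of such complexes. The complex with the catalytic subunit STT3A works on chains still entering the endoplasmic reticulum and is tied to the translocon through OSTC (also called DC2) and KRTCAP2, whereas the complex with STT3B also reaches sites that were skipped and carries either TUSC3 or MAGT1. These 2 relatives have a thioredoxin-like domain facing the lumen, resemble Ost3 and Ost6 of yeast, and have also been linked to magnesium transport. RPN1, RPN2, DDOST and DAD1 belong to both complexes. TUSC3 was named as a tumor suppressor candidate, and its loss of function causes intellectual disability, while loss of MAGT1 causes an immune deficiency.

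The study concerns CpG methylation, so the CpG content before the start of these genes is shown first. It is given for the relative of TUSC3 and for the members with most and fewest CpG among those matched. RefSeq windows of assembly GRCh38.p14 were matched for 5 of the 8 genes, and those of TUSC3, STT3B and RPN1 were not among the matched ones. The 250 bases before the annotated start are printed 5′ to 3′ on the strand of the gene, with each CG in capitals. MAGT1 had 2 annotated starts with overlapping windows, and the outer one is shown (chrX:77895569-77895818, minus strand). RPN2 lay at chr20:37179080-37179329 and OSTC at chr4:108650349-108650598, both on the plus strand.
MAGT1: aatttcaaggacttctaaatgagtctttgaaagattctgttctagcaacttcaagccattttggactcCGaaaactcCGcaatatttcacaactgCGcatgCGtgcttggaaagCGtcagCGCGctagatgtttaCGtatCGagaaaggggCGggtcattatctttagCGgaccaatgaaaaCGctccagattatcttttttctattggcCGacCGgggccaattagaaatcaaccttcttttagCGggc
RPN2: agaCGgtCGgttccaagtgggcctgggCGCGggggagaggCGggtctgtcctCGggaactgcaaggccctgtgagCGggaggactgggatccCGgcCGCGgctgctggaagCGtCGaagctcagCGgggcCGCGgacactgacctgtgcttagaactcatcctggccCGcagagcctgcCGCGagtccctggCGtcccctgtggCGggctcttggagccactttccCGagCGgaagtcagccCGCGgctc
OSTC: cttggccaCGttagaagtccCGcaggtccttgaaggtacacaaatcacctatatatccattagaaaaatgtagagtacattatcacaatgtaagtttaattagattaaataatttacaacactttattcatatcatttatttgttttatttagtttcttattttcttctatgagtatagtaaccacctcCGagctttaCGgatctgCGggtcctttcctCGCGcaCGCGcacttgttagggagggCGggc

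The window of MAGT1 held 15 CG, that of RPN2 held 24 and that of OSTC held 10. In OSTC the CG lay mostly in the last part of the window, next to the start. The windows of DDOST and DAD1 held 21 and 20. Over all 35116 RefSeq windows of this length the median was 11, and 93.9% held at least 1 CG. Methylation of these windows was not analysed here, and all 5 genes were above background in both arrays, as given below.

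TUSC3 went from a level below background in HCT116-WT to a clear signal in HCT116-DKO. Its gene level, the median polish over 14 probe sets, was 5.34 with HCT116-WT and 10.86 with HCT116-DKO. The groups of 1 array each lay on opposite sides of background. The difference was 5.52 (SD over probe sets 2.58), and because the HCT116-WT level gives only an upper bound, the fold is at least 13.7-fold. Of the 16241 genes, 0.0616% had a higher difference. By the rule of size (at least 3 probe sets, a difference of at least 1, at least 75% of the probe sets in that direction and a level above background in the higher array) 2.66% of all genes rose and 0.536% fell. Of the 8 genes TUSC3 rose, 0 fell and 7 were not changed, and since TUSC3 chose the group nothing is read from this count.

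The signal of TUSC3 differed between 2 stretches of its probe sets, taken in the order of their IDs. At places 1, 2 and 3 the log2 signals in HCT116-WT were 7.25, 7.67 and 8.31. The same places in HCT116-DKO had 6.91, 7.68 and 8.92. These 3 were the only probe sets of TUSC3 above background in HCT116-WT, but place 1 was below it in HCT116-DKO. Background was set from gene levels, so a single probe set above it is not shown to be detected. The signals at places 1 and 2 in HCT116-WT were also under the 99th percentile, 7.79. The differences at places 1, 2 and 3 of -0.33, 0.01 and 0.61 were small beside the rest of the gene. The other 11 probe sets, at places 4 to 14, were all below background in HCT116-WT, between 2.46 and 6.58, and all above it in HCT116-DKO, between 8.77 and 12.02. This stretch was set apart after its values were seen, so the gap between the 2 ranges is a description and no test. The differences of these 11 probe sets ran from 4.91 at place 10 to 7.38 at place 14, with a median of 5.99.

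**Figure D1:**
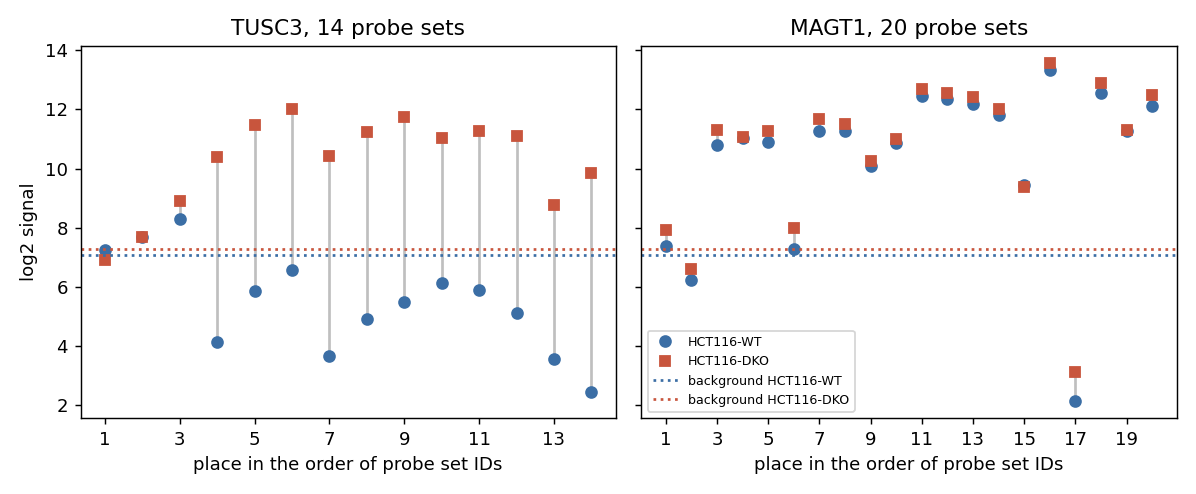
Log2 signal of each probe set of TUSC3 (left, 14) and MAGT1 (right, 20) against its place in the order of probe set IDs, with circles for HCT116-WT, squares for HCT116-DKO, 1 array each, and dotted lines for background. In TUSC3 the symbols nearly coincide at places 1 to 3 and are 4.91 to 7.38 apart from place 4 on, whereas in MAGT1 they are never more than 0.99 apart.

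Differences as large as those at places 4 to 14 were rare on the arrays. Of all probe sets with 1 gene, 0.412% were higher by at least 4 in HCT116-DKO. All 11 of this stretch were, but it was drawn for its large differences, in a gene chosen the same way. Nothing is read from that count. The probe sets at places 1 to 3 each departed by at least 2 from the difference of the gene. Among genes with at least 5 probe sets and a level above background in 1 or both arrays, 0.732% of the probe sets departed by as much, and 1.37% of the genes had 3 or more such probe sets. No probe set of the other 7 genes departed. A probe set without a difference can depart only where its gene differs by at least 2. The other 7 genes differed by at most 0.42, so such probe sets could not depart there. The shares thus do not tell how often strongly risen genes hold them. The order of IDs was taken as a label only, with no exon assigned to a place. Without places 1 to 3, a comparison added after these values were seen, TUSC3 stood at 5.11 and 11.10.

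MAGT1, the alternative to TUSC3 in the STT3B complex, had a similar level in both arrays. Its gene levels were 11.07 (HCT116-WT) and 11.31 (HCT116-DKO), a difference of 0.24 (SD over 20 probe sets 0.24), or 1.18-fold. The signal was higher in HCT116-DKO in 19 of 20 probe sets, by no more than 0.99. That widest difference was at a probe set with very low signal, 2.14 and 3.13, and 18 of the 20 probe sets were above background in each array. With a difference under 1, MAGT1 was not changed by the rule of size. Of all genes 23.9% had a higher difference, so it was not unusual among the genes. No probe set was annotated to both TUSC3 and MAGT1.

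STT3B, the catalytic subunit of the complex that uses TUSC3 or MAGT1, was the member with the smallest difference. It had 12.06 (HCT116-WT) and 12.08 (HCT116-DKO), a difference of 0.02 (SD 0.24). Its 23 probe sets split into 12 higher and 11 lower, and the sign of its difference turned with median centring of the columns (-0.07). The differences of single probe sets ran from -0.79 to 0.23, with the lowest at a probe set below background in both arrays (5.89 and 5.09). All other probe sets of STT3B were above background in both arrays.

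The 4 subunits shared by both complexes were above background in both arrays. DDOST, a non-catalytic subunit also known as OST48, was at 11.24 and 11.61, a difference of 0.37 (SD 0.30), with 14 of 16 probe sets higher in HCT116-DKO. RPN1, ribophorin I, which helps to bring membrane protein substrates to the enzyme, was at 12.00 and 12.24 (difference 0.24, SD 0.15), higher in 13 of 14 probe sets. RPN2, ribophorin II, was at 11.96 and 12.26 (difference 0.30, SD 0.14), higher in 17 of 19. For these 3 genes most probe sets were slightly higher in HCT116-DKO. DAD1, named defender against cell death from a hamster cell line that dies without it, was at 13.42 and 13.53 (difference 0.11, SD 0.20), with 4 of 5 probe sets higher. OSTC, the subunit that ties the STT3A complex to the translocon, was at 10.88 and 11.30, a difference of 0.42 (SD 0.24), or 1.34-fold, with 6 of 7 probe sets higher. OSTC had the largest difference of the 7 genes other than TUSC3, and 13.1% of all genes had a higher one.

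**Figure D2:**
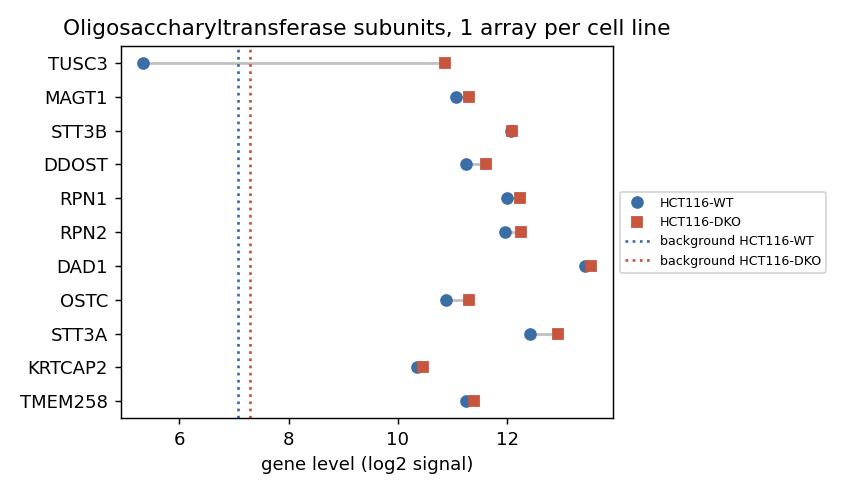
Gene levels (log2 signal, horizontal axis) of the 8 genes and of STT3A, KRTCAP2 and TMEM258, with circles for HCT116-WT and squares for HCT116-DKO, 1 array each, and dotted lines for background. TUSC3 alone starts below background, at 5.34, and the 2 symbols of every other gene are at most 0.52 apart.

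Apart from TUSC3 the complex thus differed little between the arrays. All 7 other members were above background in both arrays and had a difference under 0.58 in size, as did 92.1% of all genes above background in both, of which 1.58% rose. All 7 were higher in HCT116-DKO in the deposited values, against 55.5% of genes above background in both arrays and 53.7% of all genes. The median of the 7 was 0.24, and that of all genes 0.02. Median centring, which lowered the median of all genes to -0.07, left 6 of the 7 above 0 with a median of 0.15, the exception being STT3B. Quantile normalization left 7 above 0 with a median of 0.23. Levels cannot tell fewer expressing cells from less RNA per cell, since each array read a whole culture.

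**Figure D3:**
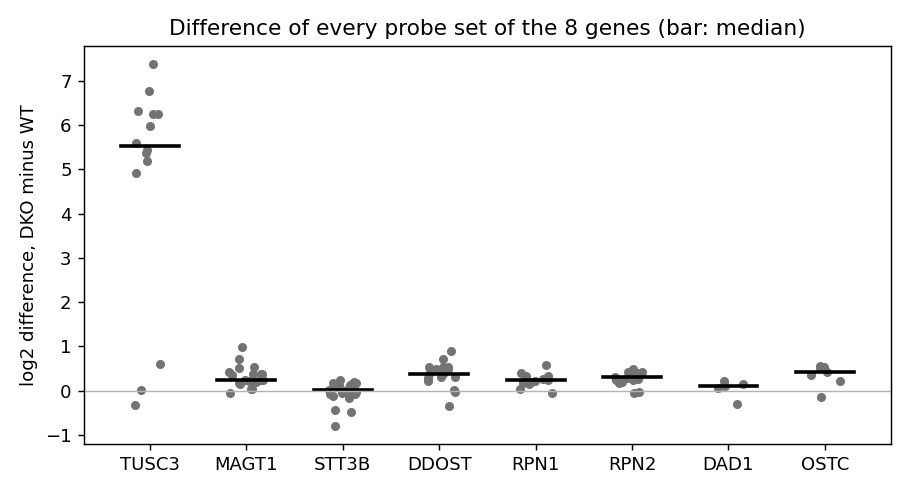
Log2 difference (HCT116-DKO minus HCT116-WT) of each of the 118 probe sets, 1 point each, by gene, with a bar at the median. TUSC3 has 11 points above 4.9 and 3 points between -0.33 and 0.61, and all points of the other 7 genes lie between -0.79 and 0.99.

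The subunits outside the 8 genes were also detected in both arrays. STT3A, the catalytic subunit of the other complex, had 12.41 (HCT116-WT) and 12.93 (HCT116-DKO), a difference of 0.52 (SD 0.16), and all 21 of its probe sets were higher in HCT116-DKO. It was 1.43-fold higher and thus under the rule of size, while STT3B was almost level. KRTCAP2, the partner of OSTC in the STT3A complex, was at 10.35 and 10.47 (difference 0.11, SD 0.20). TMEM258, a small membrane subunit, was at 11.25 and 11.40 (difference 0.14, SD 0.07 over 3 probe sets). OST4, another small subunit, was not measured with at least 3 probe sets of its own. Of the 12 subunits listed, 11 were measured. TUSC3 was the only one to pass the rule, beside 2.66% of all genes that rose and 0.536% that fell. Since TUSC3 chose the group, nothing is read from this count.

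The neighbours of TUSC3 on the short arm of chromosome 8 did not share its difference. The 5 measured genes on each side were taken in the order of the RefSeq gene table. SGCZ, a sarcoglycan gene and the nearest on one side, was at 5.00 and 5.18, and MSR1, a scavenger receptor of macrophages and the nearest on the other, was at 3.93 and 4.00. Both were below background in both arrays, so neither of the adjoining genes had a detected signal. DLC1, a candidate tumour suppressor, 3 places from TUSC3, was the only neighbour that rose, from 5.69 to 7.37, at least 1.23-fold, with 24 of 29 probe sets higher. Over all genes 2.66% rose and 0.536% fell. MICU3, a regulator of the mitochondrial calcium uniporter, was at 4.52 and 5.51 and above background in neither array. C8orf48 and TRMT9B were above background in neither array as well, and FGF20, ZDHHC2 and CNOT7 were above it in both with differences of -0.04, 0.19 and -0.16. LONRF1 was at 9.82 and 8.97, lower in all 14 probe sets by 0.49 to 1.19, and did not reach the rule with its difference of -0.85.

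Of the 10 neighbours of MAGT1 on chromosome X none changed, near the shares of 2.66% rising and 0.536% falling over all genes. ATRX, a chromatin remodeller and the nearest on one side, was at 9.00 and 8.65 (difference -0.35, 47 of 56 probe sets lower). COX7B, a subunit of cytochrome c oxidase and the nearest on the other, was at 8.94 and 8.89. The 10 differences ran from -0.39 in PBDC1 to 0.08 in CYSLTR1, which was above background in neither array (4.14 and 4.22), and MAGT1 with 0.24 lay above all of them, though under the rule of size. ATP7A, PGK1 and TAF9B differed by 0.02, -0.18 and -0.04, while ZDHHC15, MAGEE2 and MAGEE1 were not above background in HCT116-DKO.

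**Figure D4:**
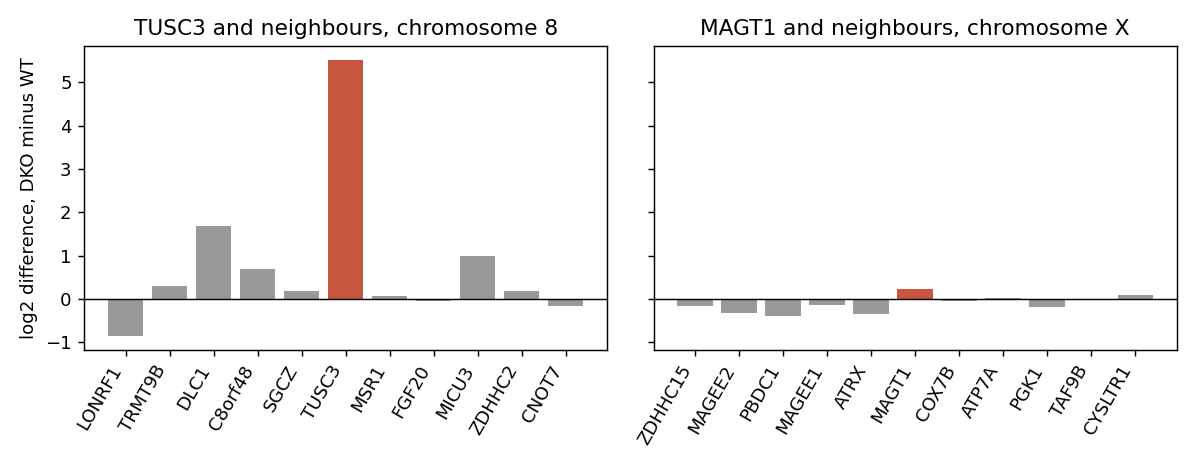
Log2 difference (HCT116-DKO minus HCT116-WT, bars from 0) of TUSC3 and of MAGT1 (red) and of the 5 measured genes on each side of them (grey), in chromosomal order. TUSC3 stands at 5.52 between SGCZ (0.18) and MSR1 (0.07), and the highest bar among its neighbours is DLC1 at 1.69.

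Genes with a pair of levels like that of TUSC3 were looked for by the Euclidean distance between the pairs, over the 2 arrays only. The nearest were HDGFL3 at a distance of 0.41 (5.29 and 10.45), TSPYL5 at 0.55 (4.86 and 10.57), ZFP42 at 0.64 (5.44 and 10.22), JAM3 at 0.83 (6.03 and 11.30) and MX2 at 0.86 (6.04 and 10.35). All 5 were below background in HCT116-WT, as genes this near to TUSC3 must be, and lie on chromosomes 15, 8, 4, 11 and 21. Their gene differences ran from 4.32 (MX2) to 5.70 (TSPYL5). The lowest probe set difference was 0.43 in HDGFL3, -0.48 in TSPYL5, 1.26 in ZFP42, -0.16 in JAM3 and -0.42 in MX2. Probe sets far under their gene were thus not particular to TUSC3. The distance weighs both arrays alike, and levels below background have no order, so the order of these 5 genes is not settled. For MAGT1 the nearest were TMEM50A, SPOP, COPB1, DMAC2 and CTSA, all within 0.041 and with differences from 0.18 to 0.27.

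No gene changed by the rule of size in the lists of genes that feed or follow the oligosaccharyltransferase. With 2.66% of all genes rising and 0.536% falling, a count of 0 in lists of this length is near the background. Of 24 genes that build the lipid-linked glycan, 20 were measured, 0 rose and 0 fell, with a median difference of 0.18 (range -0.29 to 0.94) and 14 above 0, beside 53.7% of all genes. DPAGT1, which starts the chain by adding GlcNAc phosphate to dolichol phosphate, came nearest to the rule, at 10.34 and 11.27, with all 13 probe sets higher. ALG2, a mannosyltransferase, was at 9.99 and 10.65. Of 17 genes of glycan trimming and of the lectins that read the trimmed glycan, 16 were measured and 0 changed. Their median was 0.23 (range -0.34 to 0.82), with 14 above 0, again beside 53.7%. OS9, a lectin of misfolded glycoproteins, was at 10.51 and 11.33, higher in all 24 probe sets, and LMAN2, a cargo lectin, at 11.09 and 11.62. CANX, at the low end of the range, was at 12.63 and 12.30, lower in all 27 probe sets.

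Of 17 genes of the translocon and signal peptidase, next to which the enzyme works, 0 changed, near the shares of 2.66% and 0.536% over all genes. Their median was 0.26, and 14 were above 0, beside 53.7% of all genes. The channel subunits SEC61B (10.06 and 10.70) and SEC61A2 (8.13 and 8.70) had the largest differences, of 0.64 and 0.57. Of 17 measured magnesium transport genes 0 changed, and their median of 0.04 was close to that of all genes. TMEM94, which has been linked to magnesium uptake into the endoplasmic reticulum, was at 9.22 and 9.64, and MRS2, the mitochondrial magnesium channel, at 9.89 and 9.52. The medians of the glycan and translocon lists stayed above 0 under both scalings and that of magnesium transport turned negative under both. With median centring they were 0.09 for lipid-linked glycans, 0.14 for trimming, 0.17 for the translocon and -0.05 for magnesium transport.

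**Figure D5:**
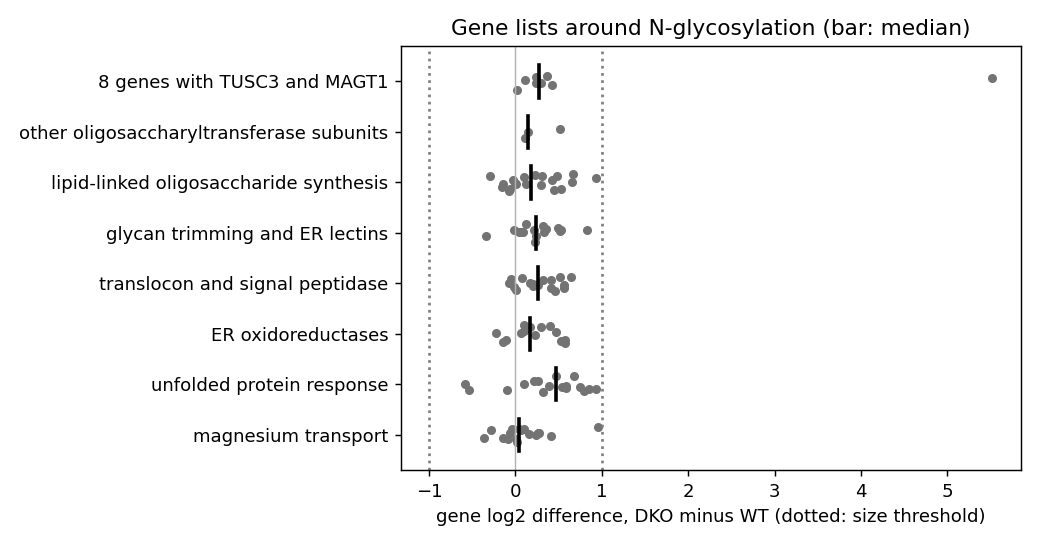
Log2 difference (HCT116-DKO minus HCT116-WT) of every measured gene, 1 point each, by gene list, with a bar at the median and dotted lines at -1 and 1. TUSC3 at 5.52 is the only point beyond the dotted lines, and the list medians lie between 0.04 and 0.47.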

How the data were processed

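The authors deposited log2 signals, 1 per exon-level probe set and array, for 287329 probe sets, and the submitters' processing notes name RMA. Expression Console and Partek Genomic Suite are both named in the study's methods, and which of them made these values was not stated. The 2 columns did not share 1 distribution, and precision is limited by the number of arrays.

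Gene symbols came from GEO's platform annotation of 2014, with older symbols updated through the RefSeq gene table (GRCh38.p14, used for names, chromosomes and gene order), after which 99.4% of 16909 symbols were current. Probe sets of several genes (9155) or with no gene (16901) were left out. Gene levels were computed by median polish (Python 3.11.15, pandas 2.3.3, numpy 2.4.6), whose difference between 2 arrays equals the median difference of the probe sets. The rule of size, given in the report, was checked on simulated data. Differences beyond its threshold were put on genes above background in both arrays, and all other genes had no difference by construction. The check thus gives no error rate for these arrays, nor for a gene below background in 1 of them, such as TUSC3. Where the dim level was not above background, the fold was taken against background or that level, whichever was higher. Tests were not possible, since each group had 1 array. Named were the 8 genes, the other subunits, of each list the changed genes or else the 2 above background with the largest difference, 5 neighbours on each side of TUSC3 and MAGT1, and the 5 genes nearest to each in levels. Cell type markers given singly were picked after their values were seen. So were CANX, the genes below 0 of the unfolded protein response and the genes named for chromosome 11. Members, lists and rules were chosen with earlier results of these data known. Alternatives covered scaling, summary, choice of probe sets, background and threshold.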

Additional observations from a re-analysis of the deposited data

How the results depend on the processing

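The count of genes that rose was 920 at a log2 threshold of 0.58, 186 at a threshold of 2 and 221 with background at the 99th percentile, against 432 as reported. The count of genes that fell was 292 at 0.58 and 17 at 2, against 87. TUSC3 rose under all 14 alternatives run for it, with a difference of 3.78 (levels below background set to background) to 5.99, and its lower bound was at least 18.3-fold with background at the 90th percentile and at least 8.40-fold at the 99th. The other 7 genes were not changed under any of 13 alternatives each, and every move was smaller than the SD over probe sets. The median of probe set differences equals the reported value by construction, and the background percentile and the threshold can move a call but not a difference. These settings therefore say nothing about how stable the differences are, for TUSC3 too, and setting low levels to background can move TUSC3 alone of the 8 genes. STT3B lay between -0.07 and 0.02 and DAD1 between -0.04 and 0.11, so their sign is not settled. MAGT1, DDOST, RPN1, RPN2 and OSTC stayed above 0, between 0.15 (MAGT1 and RPN1) and 0.54 (OSTC). No paired analysis was possible because each group had 1 array.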

Other observations

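Genes of the unfolded protein response, which adjusts the folding capacity of the endoplasmic reticulum, had the highest median among the lists, 0.47 over 17 measured genes, beside 0.02 over all genes, and 0.41 and 0.38 after quantile normalization and median centring. By the rule of size 0 rose and 0 fell, and 14 of 17 differences were above 0, beside 2.66%, 0.536% and 53.7% of all genes. The 3 below 0 were TRIB3 (-0.58), ATF4 (-0.53, 10 of 13 probe sets lower) and HERPUD1 (-0.10). HYOU1, a chaperone of the Hsp70 type, was at 11.13 in HCT116-WT and 12.06 in HCT116-DKO, higher in all 36 probe sets. DNAJC3, a co-chaperone, was at 9.51 and 10.37, higher in 14 of 15. At a threshold of 0.58, applied to the lists after these values were seen, 7 of the 17 genes rose and 1 fell (TRIB3), beside 920 and 292 of 16241. At that threshold 3 of 20 genes of lipid-linked glycan synthesis (DOLK, DPAGT1 and ALG2), 1 of 16 of glycan trimming (OS9) and 1 of 17 of the translocon (SEC61B) rose, and 0 of the ER oxidoreductases, of magnesium transport and of the other subunits. The genes in these brackets were named after their values were seen. HYOU1, DPAGT1, STT3A and ALG9 all lie on chromosome 11, with differences of 0.93, 0.94, 0.52 and 0.53. GANAB, ALG8, TMEM258, TMX2 and SPCS2, also on chromosome 11, differed by 0.12 to 0.17. Whether a shared region accounts for the larger differences was not tested.

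Genes of other oxidoreductases of the endoplasmic reticulum, the class to which TUSC3 and MAGT1 belong by their fold, held 15 measured members with a median of 0.17. Of these 0 rose, 0 fell and 12 had a difference above 0, beside 2.66%, 0.536% and 53.7% of all genes. DNAJC10, a disulfide reductase, was at 10.12 and 10.69, and P4HB, the protein disulfide isomerase, at 12.63 and 13.15.

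A few probe sets shared with other genes were left out of the levels. The 2 probe sets of OSTC and OSTCL were at 8.39 and 10.25 in HCT116-WT and at 9.02 and 10.13 in HCT116-DKO, and the 1 of RPN2 and EEF1A2 at 10.22 and 10.49. None differed by 1 or more on the log2 scale.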
